A study of Rattus norvegicus with 8 samples.

Results

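The genes described here are 8 transcripts used as markers of the choroid plexus epithelium: Ttr, Clic6, Kl, Aqp1, Otx2, Enpp2, Igf2 and Folr1. They were chosen as every spot outside the array's controls that carries 1 of these gene names, and all 8 were found among 35523 gene names on the array, on 9 of 41012 probes and 18 of 43379 spots per array. Aqp1 was printed on 10 spots, Otx2 had 2 probes, and each of the other 6 genes had 1 probe on 1 spot. RNA came from the medial thalamus of 8 male Sprague-Dawley rats (labelled as 277 g), all under urethane anaesthesia and all instrumented with a cuff that closes the trachea when it is inflated. In the 4 occlusion rats the cuff blocked 2 to 4 breaths, then at least 15 breaths passed freely, in cycles over 10 min, and the brain was taken out directly afterwards. In the 4 control rats the cuff was left deflated and the brain was taken out 70 min after surgical setup. No time from setup to removal was found for the occlusion rats in the sources used here, so that time and treatment cannot be told apart. Each rat was hybridised in Cy5 against a pool of all 8 rats in Cy3 on 1 Agilent rat array, with no dye swap, so that a positive log2 ratio means more signal than in the pool. The pool holds each animal's own RNA, which is shared by all 8 ratios.

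The choroid plexus is a fold of epithelium over a leaky capillary bed that secretes cerebrospinal fluid into the ventricles. The plexus of the third ventricle hangs from the ventricle's roof, directly above the medial thalamus and next to the habenula. Its cells pump ions and water, hold a barrier between blood and cerebrospinal fluid, and secrete carrier proteins and growth factors. Several of these genes are also read in other cells of this region: Igf2 in meninges and vessels, and Enpp2 in oligodendrocytes. In a bulk piece of tissue, fewer cells of a type and less RNA per cell cannot be told apart.

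The label was checked against marker lists before the genes were read. Of 12 tested markers of thalamic relay neurons, the list mean lay between -0.27 and 0.13 in occlusion rats and between 0.08 and 0.16 in controls 1, 2 and 4, but was -1.75 in control 3. In control 3 Prkcd, a kinase of relay neurons, was at -3.02, while the mean of 11 cortex genes was 1.44 there and no higher than -0.30 elsewhere. The array of control 3 had a median correlation of -0.12 with the other 7 arrays, and the lowest correlation of any pair was -0.20. Control 3 thus went against its tissue label, and many of the differences and list counts below are given with and without it. Occlusion 3 stood apart in another way: Ttr was high in it, and 36 of 26174 genes (0.138%) lay 1 log2 unit or more above the median of the other 7 animals, against 577 genes (2.2%) in control 3. Dim probes of occlusion 3 had smaller log2 ratios here than in the scanner software's output. Aqp1 was at 0.30 here and 1.37 there, while in control 3 it was at 0.29 and 0.41. The part of the processing in the contrast of 36 with 577 genes was not tested. On the 8 arrays the median spot was 3.65 to 4.67 times its local background in Cy5, and the number of animals limits the precision. Slide 1 held occlusion 1 and 2 with control 3 and 4, and slide 2 held occlusion 3 and 4 with control 1 and 2.

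The probes lie, on the rn3 build that the array design uses, at chr18:12434403-12434462 for Ttr, chr11:32615187-32615246 for Clic6, chr12:3732725-3732784 for Kl and chr4:84396592-84396651 for Aqp1. Folr1 and Igf2 are both on chromosome 1, at chr1:159395122-159395181 and chr1:203094707-203094766. The brighter Otx2 probe lies at chr15:24639154-24639213 and the dimmer at chr15:24639817-24639876. The Enpp2 probe spans chr7:91330659-91336052, which is 5394 bases, while each other probe of these genes spans 60 bases. The exon that each probe reads was not looked up, since no annotation of that build was used here. Promoters, from 250 bases before to 50 bases after the annotated start, were found for 4 of the 8 genes in the RefSeq table of the GRCr8 assembly (Ttr, Aqp1, Kl and 2 starts of Igf2). Those of Ttr, Aqp1 and the downstream Igf2 start are shown because these 3 genes carried the largest deviations of single animals described below among genes with a promoter entry. Capitals mark TATAAA, searched on both strands.
Ttr, chr18:12218508-12218807, plus strand: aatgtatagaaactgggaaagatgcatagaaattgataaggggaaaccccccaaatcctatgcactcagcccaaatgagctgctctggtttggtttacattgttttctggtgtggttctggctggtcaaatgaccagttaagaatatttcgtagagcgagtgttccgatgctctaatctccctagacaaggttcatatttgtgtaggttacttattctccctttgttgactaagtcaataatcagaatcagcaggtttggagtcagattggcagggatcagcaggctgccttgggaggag
Aqp1, chr4:85812534-85812833, plus strand: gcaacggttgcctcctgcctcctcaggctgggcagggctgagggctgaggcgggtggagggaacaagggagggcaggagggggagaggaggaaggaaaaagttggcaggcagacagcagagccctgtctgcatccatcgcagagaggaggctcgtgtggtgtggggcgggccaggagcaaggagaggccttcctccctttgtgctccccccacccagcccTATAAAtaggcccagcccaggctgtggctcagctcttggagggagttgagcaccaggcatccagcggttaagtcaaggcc
Igf2, chr1:207250426-207250725, minus strand: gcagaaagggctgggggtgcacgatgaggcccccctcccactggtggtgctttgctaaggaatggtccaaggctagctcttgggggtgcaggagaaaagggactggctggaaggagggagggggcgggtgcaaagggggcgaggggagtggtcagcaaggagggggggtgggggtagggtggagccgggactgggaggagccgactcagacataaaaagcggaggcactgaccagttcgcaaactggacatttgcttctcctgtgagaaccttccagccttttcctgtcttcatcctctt
The Aqp1 promoter held 1 TATAAA, at -30 from the start, and the other 4 promoters held none, where 14.2% of 33469 promoters in the table hold it. The homeodomain motif TAATCC, the type bound by OTX proteins, was in none of the 5 and in 7.17% of the table. GC content was 43.7% in Ttr, 64% in Aqp1 and 60.7% in this Igf2 promoter, beside a median of 51.7% over the table.

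Across the occlusion and control rats none of the genes tested passed the test of the group difference. Among the 7 genes bright enough to test, the log2 mean was higher under occlusion in 6 and lower in 1, Igf2. Of all 26967 genes tested, 50.2% were higher in the mean. Without control 3 all 7 were higher, and without occlusion 3 the split was 5 higher and 2 lower. Of the 7 genes bright enough to test, 0 passed an adjusted p of 0.05 (limma, Benjamini-Hochberg over all genes), as did 0% of all genes, and the smallest adjusted p of any gene was 0.974. Both Clic6 and Folr1, 2 of the 7, had an unadjusted p under 0.05 and were higher, beside 3.12% of all genes (1.83% higher and 1.29% lower) and 3.06% of all probes. The groups did not overlap for 1, Clic6, beside 2.46% of all genes measured on 8 arrays, of which 1.16% were higher and 1.3% lower under occlusion. The median log2 difference of the 7 was 0.49, against 0.00077 for all genes, between 0.35 and 0.62 when any single animal was left out, and 0.17 without both occlusion 3 and control 3. Kl was well above background on 1 array of 8 and was not tested.

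**Figure D1:**
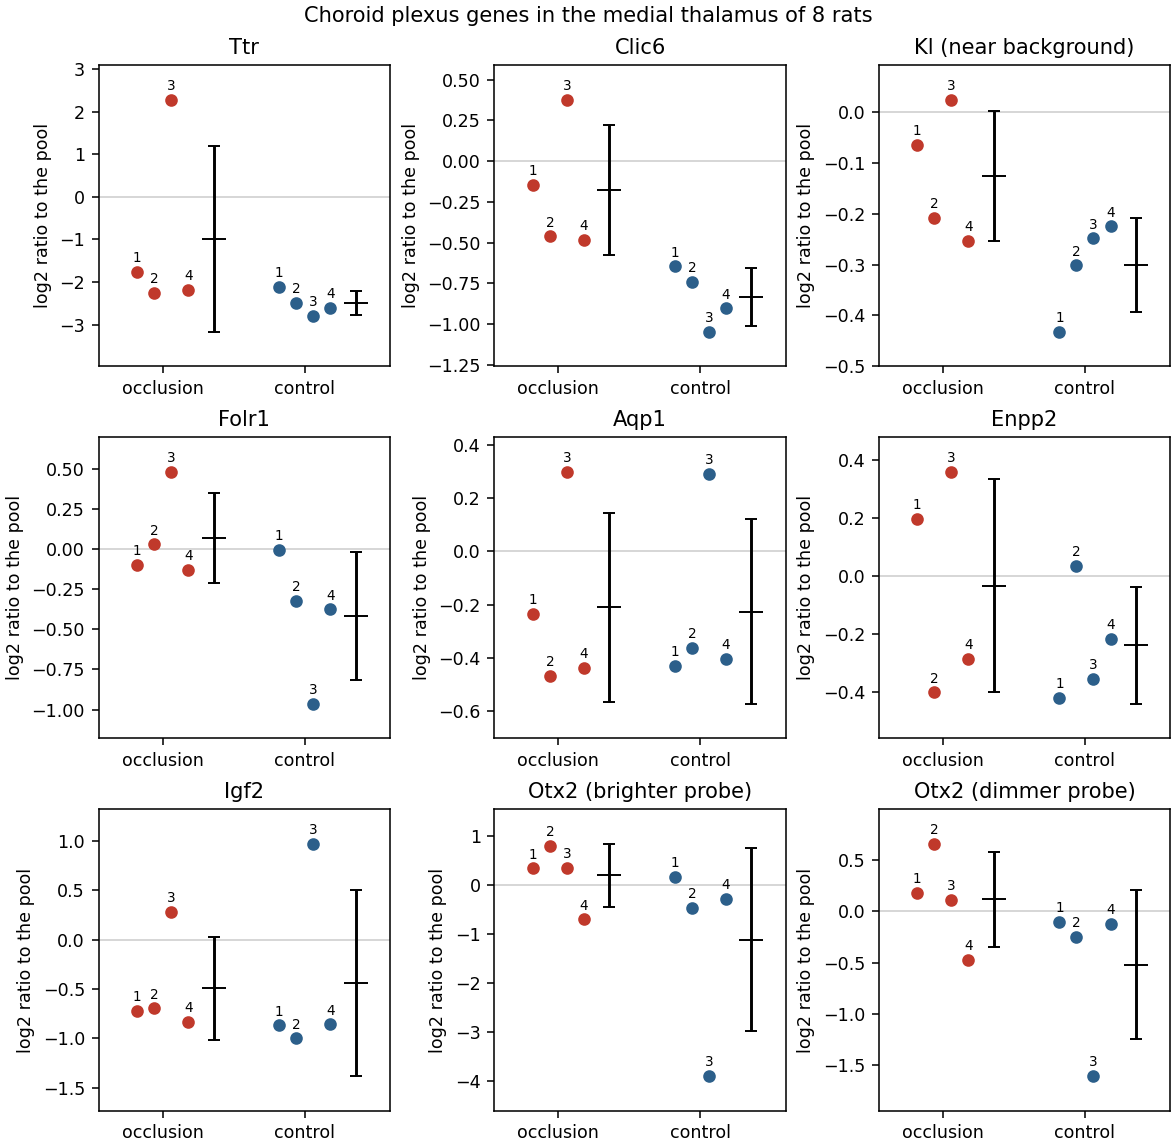
Log2 ratio of each animal to the pool (vertical axis) for the 9 probes of 8 choroid plexus genes, occlusion rats in red and control rats in blue, numbered by replicate. Horizontal bars are the group mean and whiskers 1 SD (n = 4). Occlusion 3 is the highest animal for Ttr, Clic6, Kl, Folr1, Aqp1 and Enpp2, and control 3 the lowest for Ttr, Clic6, Folr1 and Otx2.

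Ttr encodes transthyretin, the secreted carrier of thyroxine and of retinol-binding protein, and is among the most abundant transcripts of this epithelium. Its log2 ratios were -1.76, -2.25, 2.28 and -2.19 in occlusion rats 1 to 4, against -2.11, -2.50, -2.79 and -2.60 in control rats 1 to 4. The groups overlapped, and 1 animal, occlusion 3, lay far above the other 7. In Cy5 the probe's signal was 67497 in occlusion 3 and no more than 3613 nor less than 1985 elsewhere, with no saturated spot, while the pool's Cy3 signal stayed between 5839 and 7026. Occlusion 3 was 4.53 log2 units, or 23.1-fold, above the median of the other animals, and no other of 26174 genes deviated as far upwards in that animal. The mean ratio was -0.98 ± 2.18 under occlusion and -2.50 ± 0.29 in controls (SD, n = 4 each). The log2 difference was 1.52 with a standard error of 0.91, a 95% interval from -0.56 to 3.59 and an adjusted p of 0.974 (limma). An exact permutation test over 70 assignments gave p = 0.0857, where 0.0286 is the smallest that 4 against 4 animals allow. Without occlusion 3 the difference was 0.43, without control 3 it was 1.42, and it was 0.69 within slide 1 and 2.35 within slide 2. Most of the size of the difference therefore came from 1 rat, and the SD of the occlusion group was larger than the difference.

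Clic6 encodes a member of the chloride intracellular channel family that is enriched in this epithelium. Its log2 ratios were -0.15, -0.46, 0.38 and -0.48 in occlusion rats 1 to 4, against -0.65, -0.74, -1.05 and -0.90 in control rats 1 to 4. Every occlusion rat lay above every control rat, with occlusion 3 highest and control 3 lowest. The means were -0.18 ± 0.40 under occlusion and -0.83 ± 0.18 in controls (SD, n = 4 each). The log2 difference was 0.66 with a standard error of 0.19, a 1.57-fold higher ratio, with an unadjusted p of 0.00731 and an adjusted p of 0.974 (limma). The exact permutation p was 0.0286, the smallest possible. The difference was 0.47 without occlusion 3, 0.58 without control 3, 0.67 within slide 1 and 0.64 within slide 2. This probe is dim, with a Cy5 signal of 562 in occlusion 3 and 114 to 194 elsewhere. The added offset of 50 narrows the ratios of dim probes in general. The parts of the offset, the background correction and the loess step in the Clic6 values were not tested. In the ratios of the scanner software Clic6 was 1.76 in occlusion 3 and -2.44 in control 3, and the log2 difference was 1.63.

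Folr1 encodes folate receptor alpha, which carries folate across the epithelium into the cerebrospinal fluid. Its log2 ratios were -0.10, 0.03, 0.48 and -0.13 in occlusion rats 1 to 4, against -0.0039, -0.32, -0.96 and -0.38 in control rats 1 to 4. The groups overlapped through control 1, and again occlusion 3 was highest and control 3 lowest. The log2 difference was 0.49 with a 95% interval from 0.01 to 0.96, an unadjusted p of 0.0462 and an adjusted p of 0.974 (limma). Exact permutation gave p = 0.0857. The difference was 0.30 without control 3, without occlusion 3 it was 0.35, and without both it was 0.17. It was 0.63 within slide 1 and 0.34 within slide 2, and 0.81 in the ratios of the scanner software.

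Kl encodes klotho, the co-receptor for fibroblast growth factor 23, which is made in the plexus and the kidney. Its Cy5 signal lay between 82.2 and 123, and occlusion 3 was the 1 array on which it was well above background. The log2 ratios were -0.06, -0.21, 0.02 and -0.25 in occlusion rats 1 to 4, against -0.43, -0.30, -0.25 and -0.22 in control rats 1 to 4. Occlusion 3 was the highest animal, as for Ttr, and the groups overlapped. Kl was measured above background on 1 of 4 occlusion arrays and 0 of 4 control arrays, so no fold is given.

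**Figure D2:**
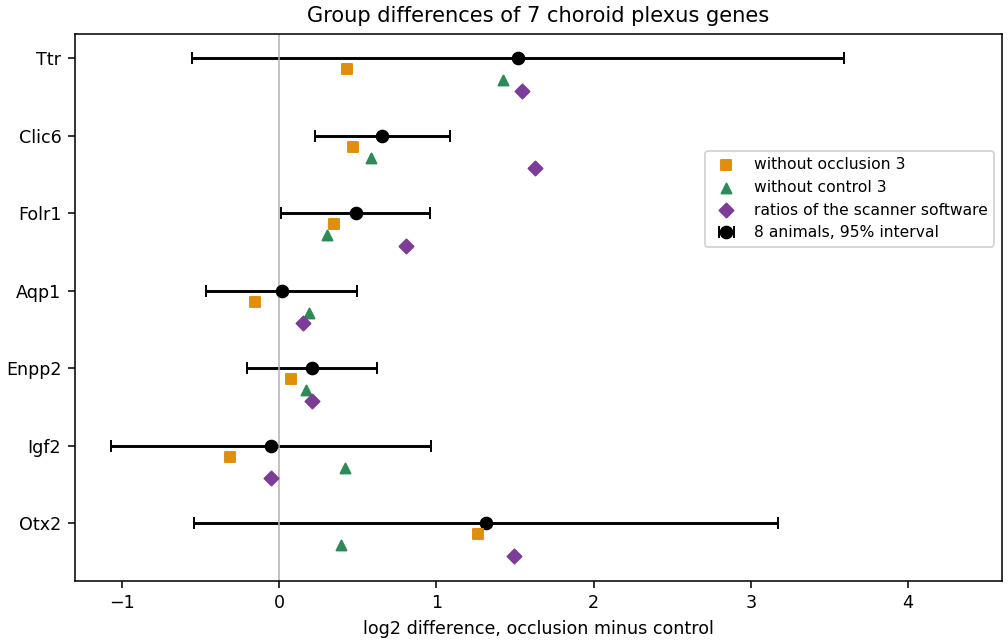
Log2 difference, occlusion minus control (horizontal axis), for the 7 genes tested. Black circles with whiskers give the 8-animal estimate and its 95% interval, squares leave out occlusion 3, triangles leave out control 3, and diamonds use the ratios of the scanner software. Ttr moves to 0.43 without occlusion 3 and Otx2 to 0.39 without control 3, while Clic6 stays between 0.47 and 1.63.

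Aqp1 encodes the water channel of the apical membrane facing the ventricle. Its log2 ratios were -0.23, -0.47, 0.30 and -0.44 in occlusion rats 1 to 4, against -0.43, -0.36, 0.29 and -0.40 in control rats 1 to 4. A single rat of each group, replicate 3, lay apart and at nearly the same height, and the other 6 were close together. Between 7 and 10 spots of the probe were kept on each array, and their SD within an array was 0.0453 to 0.101, which covers spot-to-spot error only. The log2 difference was 0.02 with a 95% interval from -0.47 to 0.50, an adjusted p of 0.998 (limma) and an exact permutation p of 0.971. It was -0.15 without occlusion 3, 0.19 without control 3, -0.30 within slide 1 and 0.33 within slide 2, so its direction turned with the animals included. In the scanner software's ratios the 2 animals were not equal, with 1.37 in occlusion 3 and 0.41 in control 3.

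Igf2 encodes insulin-like growth factor 2, a growth factor released into the cerebrospinal fluid by the plexus and made by the meninges. Its log2 ratios were -0.72, -0.70, 0.28 and -0.83 in occlusion rats 1 to 4, against -0.87, -0.999, 0.97 and -0.86 in control rats 1 to 4. Both replicate 3 rats were high, with occlusion 3 below control 3, and the other 6 lay within a narrow band. Occlusion 3 was 2.17-fold and control 3 was 3.49-fold above the median of the other 7 animals. The mean of 19 meningeal and fibroblast genes was also highest in these 2 rats, at 0.09 in occlusion 3 and 0.87 in control 3, and lay between -0.45 and -0.24 in the other 6. The part of meningeal tissue in the Igf2 values was not tested. The log2 difference was -0.05 with a 95% interval from -1.07 to 0.96 and an adjusted p of 0.993 (limma), and the exact permutation p was 1. It was -0.31 without occlusion 3, 0.42 without control 3, -0.76 within slide 1 and 0.66 within slide 2.

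Enpp2 encodes autotaxin, the secreted enzyme that makes lysophosphatidic acid. Its log2 ratios were 0.20, -0.40, 0.36 and -0.29 in occlusion rats 1 to 4, against -0.42, 0.04, -0.35 and -0.22 in control rats 1 to 4. The groups overlapped, with occlusion 3 highest and occlusion 1 next. The mean of 16 myelin and oligodendrocyte genes was 0.20, -0.30, -0.26 and -0.12 in occlusion rats 1 to 4, against -0.25, -0.04, -0.25 and -0.18 in control rats 1 to 4. Outside occlusion 3, Enpp2 was thus highest in the same 2 rats as the myelin genes, occlusion 1 and control 2, and in occlusion 3 Enpp2 was high where the myelin genes were not. The part of oligodendrocytes in the Enpp2 values was not tested. The log2 difference of Enpp2 was 0.21 with a 95% interval from -0.21 to 0.62, an adjusted p of 0.974 (limma) and an exact permutation p of 0.343. It was 0.08 without occlusion 3, 0.17 without control 3, 0.18 within slide 1 and 0.23 within slide 2.

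Otx2 encodes a homeodomain transcription factor that the choroid plexus needs to form in mouse. At its brighter probe the log2 ratios were 0.34, 0.80, 0.34 and -0.70 in occlusion rats 1 to 4, against 0.16, -0.46, -3.90 and -0.29 in control rats 1 to 4. The Cy5 signal was 6929 in occlusion 2, the highest animal, and 241 in control 3, which lay far below the other 7. The dimmer probe gave 0.18, 0.65, 0.11 and -0.48 in occlusion rats 1 to 4, against -0.11, -0.25, -1.60 and -0.12 in control rats 1 to 4. Both probes put occlusion 2 highest and control 3 lowest, and occlusion 4 next to lowest. Unlike Ttr, Otx2 did not set occlusion 3 apart. The mean of 7 habenula genes, which mark a nucleus beside the third ventricle, had the same animals at its ends, with 0.05, 0.57, 0.19 and -1.06 in occlusion rats 1 to 4, against 0.35, -0.07, -1.89 and -0.03 in control rats 1 to 4. The part of the position of the tissue piece in the Otx2 values was not tested. The log2 difference was 1.32 at the brighter probe with a 95% interval from -0.54 to 3.18, an adjusted p of 0.974 (limma) and p = 0.229 by exact permutation. At the dimmer probe it was 0.64, with an adjusted p over all probes of 0.977 (limma) and p = 0.2 by exact permutation. At the brighter probe the difference without control 3 was 0.39, and it was 2.66 within slide 1, which holds control 3, and -0.03 within slide 2.

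Among themselves the genes fell into different patterns over the animals. Of 21 pairs of the 7 tested genes, 17 had a positive Pearson r and 4 a negative r, with a median of 0.43 over 8 animals. Exact permutation over 40320 pairings, adjusted over the 21 pairs, left 1 pair past 0.05, Ttr and Clic6, with r = 0.89, a raw p of 0.000248 and an adjusted p of 0.00521. Spearman's rho of that pair was 0.90, with an exact permutation p of 0.00456 and an adjusted p of 0.075. Leaving out the 2 animals farthest from the median of Ttr, occlusion 3 and control 3, gave r = 0.92, so the relation did not rest on them. Every ratio in a pair shares the same pool and the same array. Each slide held 4 animals, too few for a correlation within a slide.

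Folr1 followed Clic6 with r = 0.87 and rho = 0.88 (exact permutation p = 0.00714, adjusted 0.074), and r was 0.63 without occlusion 3 and control 3. Folr1 also followed Otx2 with r = 0.85 and rho = 0.86 (exact permutation p = 0.0106, adjusted 0.074), and r was 0.64 without occlusion 2 and control 3. Ttr and Folr1 had r = 0.74 and rho = 0.83, with an exact permutation p of 0.0787 for r (adjusted 0.236). Aqp1 and Igf2 had the highest r of all, 0.93, but a rho of 0.40 (exact permutation p = 0.0173 for r, adjusted 0.0909). Without occlusion 3 and control 3 that r was 0.09, so the relation rested on those 2 rats. The signs of the pairs as a whole also turned with these 2 rats. Without control 3 all 21 pairs were positive with a median r of 0.78. Without occlusion 3 there were 11 positive and 10 negative pairs with a median of 0.07. Without both rats there were 17 positive and 4 negative pairs with a median of 0.51. Ttr and Igf2 show this, with r = 0.33 over 8 animals, 0.98 without control 3, -0.53 without occlusion 3 and 0.61 without both.

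**Figure D3:**
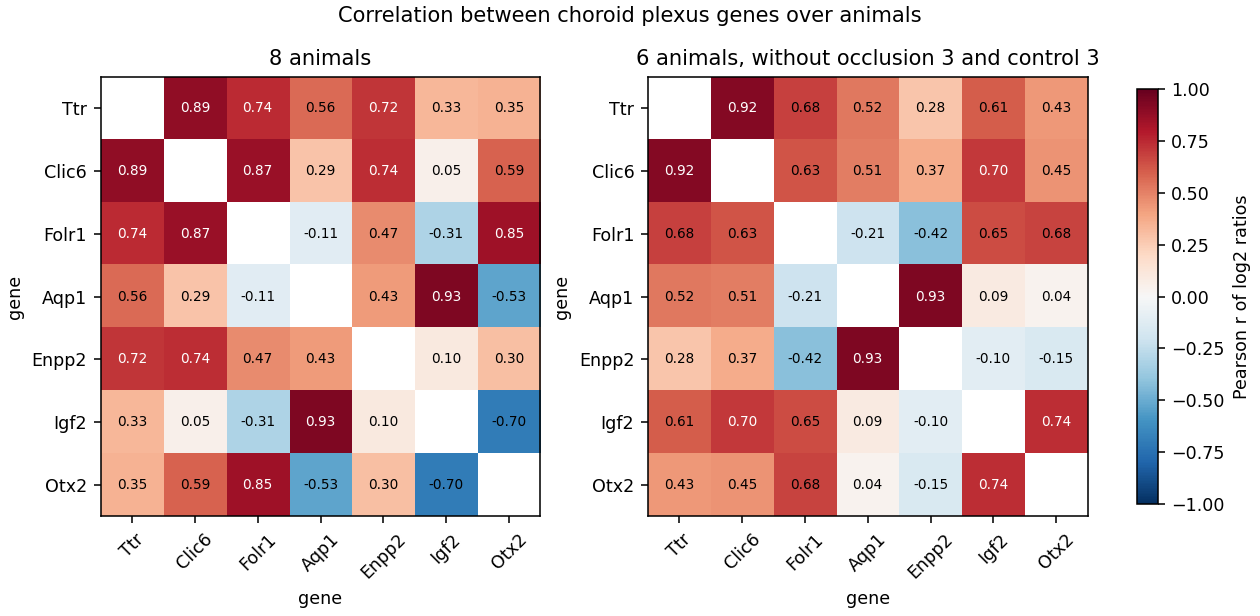
Pearson r between the log2 ratios of 7 choroid plexus genes over 8 animals (left) and over 6 animals without occlusion 3 and control 3 (right), on a colour scale from -1 to 1. Ttr and Clic6 stay at 0.89 and 0.92, while Aqp1 and Igf2 fall to 0.09 in the right panel.

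Most other genes of this epithelium were not highest in occlusion 3, although a larger share of them was than of all genes. Of 51 further choroid plexus genes listed, 46 were on the array and 40 were bright enough to test. Of these 28 were higher and 12 lower in the mean under occlusion, 0 passed the adjusted threshold in either direction, and 1 of the 40 had an unadjusted p under 0.05, beside 3.12% of all genes. The median log2 difference of the 40 was 0.07. Without control 3 the split was 33 higher and 7 lower, with a median of 0.05. Without occlusion 3 the split was 26 and 14, also with a median of 0.05. Without both occlusion 3 and control 3 the median was 0.01, with 21 higher and 19 lower. The list mean was 0.02, 0.0043, 0.17 and -0.21 in occlusion rats 1 to 4, against -0.10, -0.20, -0.16 and -0.16 in control rats 1 to 4. Occlusion 3 was the highest animal for 8 of the 40 and for 5 of the 7 tested genes described above, beside 7.61% of all genes. Control 3 was the highest animal for 24.4% of all genes. Dim probes of occlusion 3, such as that of Clic6, lay nearer 0 in the ratios used here than in the scanner software's. The share of 7.61% was not counted in the latter, so how far it depends on the processing was not tested. Genes that did stand out in occlusion 3 include Sostdc1, a secreted BMP and Wnt antagonist, at 1.97 there and at -2.48 in control 3. Kcnj13, an apical potassium channel of this epithelium, was at 1.03 in occlusion 3, above a range of -1.81 to -0.33 elsewhere. Msx1, a homeobox gene of the dorsal midline, was at 1.05 in occlusion 3 and 0.82 in control 3. Ace, which encodes angiotensin-converting enzyme, gave the smallest unadjusted p of the list, with a log2 difference of 0.59, an unadjusted p of 0.0163 and an adjusted p of 0.974 (limma). Its lowest animal was control 3, at -0.92, and without control 3 the Ace difference was 0.45. Trpv4, an osmosensitive calcium channel, was the 1 gene of the 40 whose groups did not overlap, beside 2.46% of all genes, with a log2 difference of -0.13. Both counts are near the share over all genes. The ion cotransporter Slc12a2 was the lowest of the list in occlusion 3, at -0.22.

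Ependymal cells line the ventricle beside the plexus and bear motile cilia, and their genes are listed as a neighbouring source of RNA. Of 22 tested, 19 were higher and 3 lower in the mean under occlusion, 12 had an unadjusted p under 0.05 (beside 3.12% of all genes), 6 had groups that did not overlap (beside 2.46%) and 0 passed the adjusted threshold. Their mean was 0.30, 0.29, 0.02 and 0.13 in occlusion rats 1 to 4, against -0.10, -0.12, -0.65 and -0.16 in control rats 1 to 4. The list means of the groups did not overlap, and occlusion 3 was the highest animal for 0 of the 22 genes, beside 7.61% of all genes. Foxj1, the regulator of motile cilia, was 0.46 in occlusion 3 and -1.15 in control 3, with a log2 difference of 0.80 and an adjusted p of 0.974 (limma), and 0.51 without control 3. Rsph9, a radial spoke protein of cilia, differed by 0.37, and by 0.41 without control 3. Tekt4, a ciliary tektin, differed by 0.67, and by 0.45 without control 3. Without control 3 the list again had 19 higher and 3 lower, and its median difference was 0.30 log2 units, beside 0.43 over 8 animals. The counts by unadjusted p and by overlap are given over 8 animals only. The part of ventricle lining in the values of Clic6 and Folr1 was not tested. Endothelial genes, 12 tested, had a mean between -0.13 and 0.15 in occlusion rats and between -0.07 and 0.0022 in control rats. Red cell genes, 5 tested, lay between -0.69 and 0.08 in occlusion rats and between -0.09 and 0.36 in control rats. Neither list was highest in occlusion 3.

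**Figure D4:**
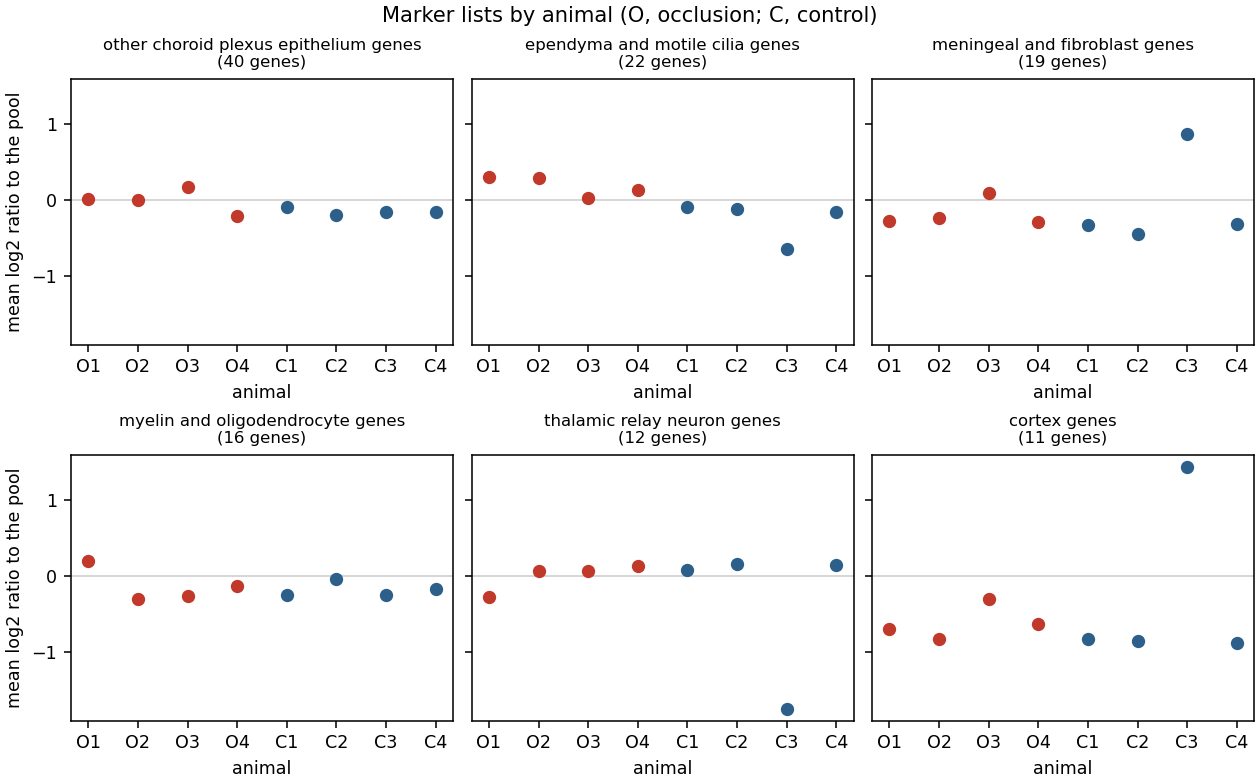
Mean log2 ratio to the pool (vertical axis) of 6 marker lists in each animal, occlusion rats O1 to O4 in red and control rats C1 to C4 in blue. Occlusion 3 is highest on the choroid plexus list at 0.17, and control 3 is apart on the ependymal (-0.65), meningeal (0.87), thalamic (-1.75) and cortex (1.44) lists.

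Genes that act with these products were read from pathway lists, and 0 passed the adjusted threshold in any. Transthyretin carries thyroxine and retinol, and of 12 tested genes for handling them 3 were higher and 9 lower in the mean, with a median log2 difference of -0.14. Without control 3 the split was 5 and 7 and the median -0.02. Crym, a thyroid hormone-binding protein, was 2.55 in control 3 and differed by -1.19, but by -0.075 without that animal. Around Igf2, 10 of 14 pathway genes were higher and 4 lower, with a median of 0.02, and without control 3 the split was 6 and 8 and the median -0.0055. Igfbp4, a binding protein that holds insulin-like growth factors, was 1.88 in control 3 and differed by -0.73, but by -0.036 without that animal. Igfbp2, another such binding protein, was 0.50 in occlusion 3 and 0.59 in control 3, both high like Igf2 itself.

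Around Enpp2, 4 of 7 genes of lysophosphatidic acid turnover were higher and 3 lower, with a median of 0.0044, and without control 3 the split was 3 and 4. Enpp1, a related ectoenzyme, differed by -0.19, and by -0.12 without control 3. Around Folr1, 8 of 12 folate genes were higher and 4 lower, with a median of 0.07, and without control 3 this turned to 4 higher and 8 lower, with a median of -0.0074. Ggh, which trims stored folate, differed by 0.16, and by 0.17 without control 3. Around Kl, 6 of 12 klotho and FGF receptor genes were higher and 6 lower, with and without control 3. Adam10, a protease that sheds klotho, differed by 0.16, and by 0.13 without control 3. Of 12 other aquaporins and CLIC genes 7 were higher and 5 lower, with and without control 3. Aqp4, the astrocyte water channel, differed by 0.26, and by 0.11 without control 3. Clic1 differed by 0.32, and by 0.38 without control 3, with an unadjusted p of 0.0142 and an adjusted p of 0.974 over 8 animals (limma).

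The genes whose pattern was most like Ttr over the 8 animals were taken by the highest Pearson r among genes that the RefSeq table names, given as a description. They were Scgb1c1 (r = 0.98), Nop16 (0.96), Pomc (0.96), Pdha1 (0.94), Mdk (0.94), Rnf227 (0.93), Brd3 (0.93), Nt5dc2 (0.92), Timm17al1 (0.92) and Pars2 (0.91), at ranks between 1 and 18 of all genes because probes known only by the design's name were passed over, and 20 of 26173 genes (0.0764%) exceeded 0.9. None of the 10 is on the choroid plexus lists used here. Scgb1c1, a secretoglobin gene, was at 1.01 in occlusion 3 and from -0.77 to -0.21 elsewhere. Pomc, the precursor of melanocortins and beta-endorphin, was at 1.19 in occlusion 3 and between -0.79 and -0.20 elsewhere. Mdk, which encodes the growth factor midkine, was at 0.83 in occlusion 3 and at most 0.01 elsewhere. Over the 7 animals without occlusion 3 the r with Ttr was 0.95 for Clic6. Among the 10 genes it was 0.81 for Timm17al1, 0.80 for Nt5dc2, 0.76 for Pdha1, 0.68 for Scgb1c1 and 0.54 for Nop16. It was 0.34 for Pomc, 0.25 for Brd3, 0.06 for Mdk, -0.10 for Pars2 and -0.20 for Rnf227. The share of all genes that reach such values over these 7 animals was not counted. By r over 8 animals Clic6 ranked 30, Sostdc1 44, Kcnj13 99, Folr1 264, Enpp2 336, Aqp1 1125, Otx2 3464 and Igf2 3733 among all genes.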

How the data were processed

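RNA of 8 rats, 4 occlusion and 4 control, was measured on 2-colour arrays, each animal 1 replicate. Per the file headers, the authors extracted the scans with Agilent Feature Extraction 9.5.1.1, and the deposited files hold spot intensity on a linear scale, flags for each spot (well above background, saturated, outlier) and a log10 ratio of Cy5 over Cy3. The deposited series table holds the same log10 ratios, since all 45018 values of each array lay within 1% of the scanner file. Each column's median was 0. Direction follows the dyes in the labels.

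From the deposited intensities, log2 ratios were made by normexp (offset 50) and loess within arrays, with control and outlier spots at weight 0. Outliers were then left out and replicate spots averaged. The fit took the 31670 probes whose Cy5 was well above background on 4 or more of 8 arrays with 2 or more values per group, and the brightest probe of each of 26967 genes. Between 136 and 853 spots per array were outliers. Groups were compared in R 4.3.3 with limma 3.58.1 (lmFit, eBayes), two-sided and Benjamini-Hochberg adjusted, and single values by two-sided exact permutation. Correlations used scipy 1.17.1 and figures matplotlib 3.10.9. The fit was tested on simulated data.

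The 8 genes were matched by the files' gene name, ignoring case for Clic6. Other genes were named through a RefSeq table of GRCr8: 20032 of 41012 probes matched and 20980 kept the design's name. The genes, lists and tests were chosen with earlier results of these data known. From each list the text names the 2 genes with the smallest unadjusted p and the highest and lowest in occlusion 3, or some of them, and the 10 genes most like Ttr among those named by the table. Kcnj13, Msx1 and Gpr151, and the comparisons with the myelin, meningeal and habenula lists, were picked after their values were seen, and list values without control 3 or occlusion 3 were added then. Alternatives changed background correction, normalisation, source of the ratios, filter, probe choice, array weights, slide, replicate block and animals.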

Additional observations from a re-analysis of the deposited data

Results flagged for a closer look

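Within a group of 4, the gap of the highest or lowest animal to its nearest neighbour, divided by the group's range, was compared with Dixon's 95% limit for each probe of the 8 genes and each list mean. Of 50 such checks 14 passed the limit, where chance gives about 1 in 20, or 2.5. The checks share animals and genes, and 4 of the 14 were in occlusion 3 and 9 in control 3.

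Occlusion 3 was set apart from the rest of its group on Ttr at 2.28, on Igf2 at 0.28, on the mean of meningeal and fibroblast genes at 0.087 and on the mean of other aquaporins and CLIC genes at 0.055. Control 3 was set apart on Aqp1 at 0.29, on Igf2 at 0.97, and on Otx2 at -3.90 for the brighter and -1.60 for the dimmer probe. Of the lists, control 3 was apart on cortex genes at 1.44, ependyma and motile cilia genes at -0.65, meningeal and fibroblast genes at 0.87, retinol and thyroid hormone handling at 0.51 and thalamic relay neuron genes at -1.75. The remaining value was the mean of red cell genes in occlusion 1, at -0.69. Clic6 and Folr1, although highest in occlusion 3 and lowest in control 3, were not among the 14.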

How the results depend on the processing

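Over 14 alternatives to the fit, and with each of the 8 animals left out in turn, none of the 7 tested genes passed the adjusted threshold. The smallest adjusted p of any was 0.86 (limma). Ttr, Clic6, Folr1 and Enpp2 kept their direction throughout, with Ttr between 0.34 and 2.35, Clic6 between 0.40 and 1.63, Folr1 between 0.17 and 0.81 and Enpp2 between 0.04 and 0.33 (log2 difference). Aqp1 turned to -0.037 after median centring and -0.30 within slide 1. Igf2 turned to 0.37 with array weights, 0.66 within slide 2 and 0.16 without both replicate 3 animals, an alternative chosen after seeing the data. Otx2 turned to -0.031 within slide 2. With 1 animal left out, Aqp1 ranged from -0.15 to 0.19 and Igf2 from -0.31 to 0.42. The causes of these turns were not tested. Over all genes and over all probes the count past the threshold was 0 to 1, with the 1 coming without control 3. The count at an unadjusted p under 0.05 was 842, but 282 after median centring, 1359 with array weights and 488 without occlusion 1 to 1440 without control 1 when 1 animal was left out. Past the threshold among the 21 pairs of genes there was 1 pair, but 3 with Cy5 alone and 3 with the ratios of the scanner software.

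Same-numbered animals of the 2 groups showed no shared pattern: their deviations correlated at -0.13, 0.14, 0.03 and 0.08, and none correlated best with its own number. These values cannot show whether animals were paired in handling. With the replicate block 811 genes had an unadjusted p under 0.05 and 0 passed the adjusted threshold. Depth limits Kl, whose Cy5 signal was 1.32 to 2.04 times its local background. Clic6, Aqp1 and Folr1 were well above background on all 8 arrays, with lowest Cy5 signals of 2.14, 3.15 and 3.15 times background. The ratios of all these genes depend on the background correction. With 4 animals per group the 95% interval of the Ttr difference ran from -0.56 to 3.59.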

Other observations

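Genes of the structures next to the third ventricle's plexus add a description of the tissue pieces. Of 7 tested habenula genes the mean was higher under occlusion in 6 and lower in 1, the median log2 difference was 0.26, and 0 passed the adjusted threshold. Without control 3 this turned to 1 higher and 6 lower, with a median of -0.17. Gpr151, an orphan receptor of habenula neurons, was 0.46 in occlusion 3 and -3.12 in control 3. Irx2, a homeobox gene, was 0.47 in occlusion 3 and -3.06 in control 3. The 5 tested genes of the pineal gland, which sits behind the habenula, were all higher in the mean under occlusion, with a median of 0.19, and 0 passed. Without control 3 there were 4 higher and 1 lower. Tph1, which makes the serotonin that melatonin is built from, was -1.99 in control 3 and differed by 0.93, and by 0.62 without that animal, with an adjusted p of 0.974 (limma). Occlusion 3, the animal with the high Ttr, was the highest animal for 0 of the 7 habenula genes and 0 of the 5 pineal genes. Beside 7.61% of all genes, counts of 0 in lists this short are near the share over all genes.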
